A study of Homo sapiens with 18 samples.

Results

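The genes described here are RIGI, IRF7 and IRF9, 3 of the 14884 named genes measured in U937 cells, a human monocyte-like line derived from a histiocytic lymphoma. They were picked by symbol (RIGI under its older symbol DDX58 as well) with their levels over all 6 groups already known. Their own levels are therefore given as a description and carry no test. Each gene had 1 probe set on the Affymetrix Human Gene 2.0 ST array: 17093090 for RIGI, 16733995 for IRF7 and 16782687 for IRF9.

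The study held 18 arrays in 6 groups of 3. The groups were decitabine plus panobinostat, decitabine plus valproic acid, decitabine, panobinostat, valproic acid and control. Decitabine (5-aza-2'-deoxycytidine) is a cytosine analogue that depletes DNA methyltransferases, and panobinostat and valproic acid are inhibitors of histone deacetylases, the enzymes that take acetyl groups off histones. Cells received decitabine as 3 pulses of 24 h each, and the inhibitor was present for 24 h, which in the combinations was the last pulse. For the groups given an inhibitor alone the labels name the same 24 h and no other time. All groups were the same line in the same medium with fetal calf serum, and the labels do not say what the control cells received. The labels give the doses without a unit, so values with panobinostat and with valproic acid stand side by side, and their order in these arrays is not a comparison of the agents. Whether replicate arrays stem from separate cultures is not stated in the labels, so every error and p-value below measures the spread between arrays, which may be technical. Array medians lay between 3.81 and 3.87 on the log2 scale, and the number of arrays limits the precision.

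RIGI encodes RIG-I, a cytosolic helicase that binds RNA with an uncapped triphosphate end and signals through the mitochondrial adaptor MAVS to kinases that activate interferon regulatory factors. IRF7 is the regulatory factor that drives most of the interferon alpha genes once it is phosphorylated. IRF9 is the DNA-binding subunit of ISGF3, the transcription factor complex through which type I interferon receptors switch on their target genes. All 3 genes are themselves known targets of interferon signalling, so the sensor and both factors sit in the same feed-forward loop.

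Promoters of RIGI and IRF9, the 2 of the 3 genes matched in the promoter table used, are shown because they share 1 short element. The promoter of IRF7 was not analysed here. The sequences come from RefSeq (GRCh38.p14) and run from 250 bases before the annotated start to 50 bases from it, in the direction of the gene. Capitals mark the letters GAANNGAAACT, an element picked after both sequences had been read. RIGI lies on the minus strand at chr9:32526147-32526446 and IRF9 on the plus strand at chr14:24161015-24161314.
RIGI: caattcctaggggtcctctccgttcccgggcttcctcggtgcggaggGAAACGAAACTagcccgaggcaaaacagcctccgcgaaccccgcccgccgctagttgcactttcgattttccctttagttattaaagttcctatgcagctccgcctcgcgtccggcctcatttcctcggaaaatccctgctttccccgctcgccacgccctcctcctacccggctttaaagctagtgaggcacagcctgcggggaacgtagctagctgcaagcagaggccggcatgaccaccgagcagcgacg
IRF9: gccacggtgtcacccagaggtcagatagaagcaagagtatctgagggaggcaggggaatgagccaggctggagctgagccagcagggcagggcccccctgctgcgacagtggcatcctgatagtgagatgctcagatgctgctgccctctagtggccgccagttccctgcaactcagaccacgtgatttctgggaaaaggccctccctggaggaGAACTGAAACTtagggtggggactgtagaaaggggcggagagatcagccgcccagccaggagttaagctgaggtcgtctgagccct
In RIGI the marked letters stood 203 to 193 bases before the start, and in IRF9 36 to 26 bases before it. On either strand, GAANNGAAACT was present in 152 of 35116 RefSeq promoters of this length (0.433%). The core of the interferon response element, GAAANNGAAA, was present in 3.57% of promoters and in neither of these. The composite element of ETS and IRF proteins, GGAANNGAAA, was present in 2.82% of promoters, and RIGI held it 204 to 195 bases before its start, overlapping the marked letters. The gamma-activated site TTCNNNGAA, the letters read by STAT dimers, was present in 7.66% of promoters and stood 63 to 55 bases before the start of IRF9. The RIGI window held 27 CpG dinucleotides, the substrate of DNA methyltransferases, and 71.8% of promoters held fewer. The IRF9 window held 7, and 36.8% of promoters held fewer, with a median of 14 over all promoters. These letters describe the windows, and binding and methylation were not measured.

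RIGI, the RNA sensor, was above control in all 5 treated groups. Its deposited log2 signal with decitabine plus panobinostat was 10.10, 9.78 and 9.85 on the 3 arrays (9.91 ± 0.17, SD, n = 3). Decitabine plus valproic acid gave 9.02, 8.95 and 9.20 (9.06 ± 0.13). Every array of both combinations lay above every array of the single agents and of the control. The single agents gave 8.47, 8.28 and 8.34 with decitabine (8.36 ± 0.10), 8.35, 8.32 and 8.56 with panobinostat (8.41 ± 0.13), and 8.78, 8.45 and 8.35 with valproic acid (8.52 ± 0.22). Control arrays read 7.34, 7.97 and 7.76 (7.69 ± 0.32). The 3 single agents overlapped one another and every one of their arrays lay above every control array. Each array reads RNA pooled from many cells, so more RNA per cell and more cells with signal cannot be told apart.

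The differences of RIGI from control, each with a standard error (SE) of 0.16 from limma, were 2.22 with decitabine plus panobinostat (4.66-fold), 1.37 with decitabine plus valproic acid (2.58-fold), 0.67 with decitabine, 0.72 with panobinostat and 0.83 with valproic acid. As a background, all 3 arrays lay above all 3 control arrays for 16.9% of named genes in the group of decitabine plus panobinostat and for 15.4% in that of decitabine plus valproic acid. The shares were 11.5% for decitabine, 11.6% for panobinostat and 13.1% for valproic acid. Adding panobinostat to decitabine gave a RIGI difference of 1.55 from decitabine alone, and adding decitabine to panobinostat gave 1.50 from panobinostat alone, with no overlap of arrays in either case. Decitabine plus valproic acid gave a difference of 0.69 from decitabine alone and of 0.53 from valproic acid alone, also without overlap. The shares of named genes separated in this way were 14.2% for decitabine plus panobinostat over decitabine, 12.5% over panobinostat, 11.2% for decitabine plus valproic acid over decitabine and 8.90% over valproic acid. Control replicate 1 was the lowest array of the gene, and without it the RIGI difference of decitabine from control was 0.50.

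**Figure D1:**
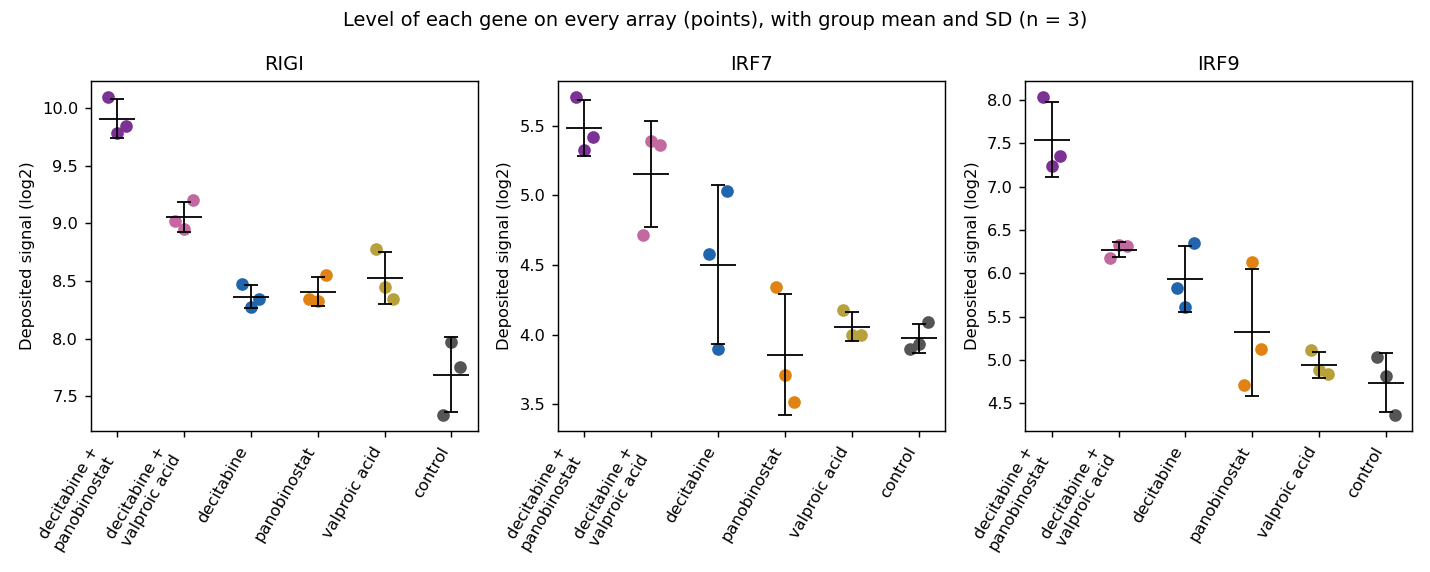
Deposited log2 signal of RIGI, IRF7 and IRF9 (y axis, a separate scale for each gene) on every array of the 6 treatment groups (x axis); points are arrays, the long bar is the group mean and the error bar 1 SD (n = 3). All 3 genes are highest with decitabine plus panobinostat, RIGI lies above control in every treated group, and for IRF7 the arrays of panobinostat (mean 3.85) and of valproic acid (mean 4.06) overlap control (mean 3.97).

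IRF7, the factor that drives interferon alpha genes, stood apart from control in the combinations and in neither inhibitor alone. Its log2 signal was 5.71, 5.32 and 5.42 with decitabine plus panobinostat (5.48 ± 0.20, SD, n = 3) and 4.72, 5.39 and 5.36 with decitabine plus valproic acid (5.16 ± 0.38). Decitabine alone gave 4.58, 3.89 and 5.03 (4.50 ± 0.57), a spread of more than 1 log2 unit that reached below the lowest control array. Panobinostat gave 4.34, 3.71 and 3.51 (3.85 ± 0.43) and valproic acid 4.17, 3.998 and 3.994 (4.06 ± 0.10). Control arrays read 3.90, 3.93 and 4.09 (3.97 ± 0.10), close to the median of all values on the arrays, 3.84. Every array of both combinations lay above every control array, and the arrays of each single agent overlapped those of the control.

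The difference of IRF7 from control was 1.51 with decitabine plus panobinostat (2.85-fold), and decitabine plus valproic acid gave 1.18 (2.27-fold), each with an SE of 0.26. With the single agents it was 0.53 for decitabine, -0.12 for panobinostat and 0.082 for valproic acid. The decitabine value depended on single arrays, at 0.26 without its replicate 3 and 0.83 without its replicate 2. That of panobinostat was -0.36 without its replicate 1 and 0.051 without its replicate 3, and that of valproic acid was 0.023 without its replicate 1 and 0.14 without control replicate 3. Decitabine plus panobinostat exceeded decitabine alone by 0.98 and panobinostat alone by 1.63, without overlap. Decitabine plus valproic acid exceeded valproic acid alone by 1.10 without overlap, and its difference from decitabine alone was 0.65 with overlapping arrays (0.35 without decitabine replicate 2, 0.92 without decitabine replicate 3).

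IRF9, the DNA-binding subunit of ISGF3, had the largest difference of the 3 genes with decitabine plus panobinostat. Its log2 signal there was 8.03, 7.24 and 7.35 (7.54 ± 0.43, SD, n = 3), and with decitabine plus valproic acid it was 6.17, 6.32 and 6.31 (6.27 ± 0.086). Decitabine alone gave 5.83, 5.61 and 6.35 (5.93 ± 0.38), reaching the level of the second combination on 1 array. Panobinostat gave 4.71, 6.13 and 5.12 (5.32 ± 0.73), with replicate 2 more than 1 log2 unit above the other arrays of its group, and valproic acid gave 5.11, 4.89 and 4.83 (4.94 ± 0.15). Control arrays read 5.03, 4.82 and 4.36 (4.74 ± 0.34). The combinations and decitabine lay wholly above control, and both inhibitors given alone overlapped it.

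The difference of IRF9 from control was 2.80 with decitabine plus panobinostat (6.97-fold), 1.53 with decitabine plus valproic acid (2.89-fold) and 1.19 with decitabine (2.28-fold), each with an SE of 0.30. It was 0.58 with panobinostat, a value that was 0.18 without panobinostat replicate 2 and 0.89 without panobinostat replicate 1, and 0.21 with valproic acid, or 0.018 without control replicate 3 and 0.35 without control replicate 1. Decitabine plus panobinostat exceeded decitabine alone by 1.61 and panobinostat alone by 2.22, and its arrays overlapped neither. Decitabine plus valproic acid exceeded valproic acid alone by 1.32 without overlap, and its difference from decitabine alone was 0.34 with overlap (0.18 without decitabine replicate 2, 0.55 without decitabine replicate 3). Ranked by the difference of decitabine plus panobinostat from control among all 14884 named genes, IRF9 stood 76th, RIGI 140th and IRF7 303rd. These ranks describe genes picked with their levels known and are no test.

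The 3 genes shared the top of their order of group means and differed below it. Decitabine plus panobinostat came first and decitabine plus valproic acid second for each. For RIGI the order went on with valproic acid, panobinostat, decitabine and control, and the neighbours that overlapped were valproic acid with panobinostat and panobinostat with decitabine. For IRF9 it went on with decitabine, panobinostat, valproic acid and control, and only the top 2 neighbours did not overlap. For IRF7 it was decitabine, valproic acid, control and panobinostat, with overlap between all neighbours from first to last. Within decitabine plus panobinostat, replicate 1 was the highest array for all 3 genes, and within valproic acid replicate 1 was as well.

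Whether a combination differed from the sum of its agents was read from the interaction, which subtracts both single-agent differences from control, in log2, from that of the combination. For decitabine and panobinostat all 3 genes were above the sum. RIGI changed by 2.22 with both agents against a sum of 1.39, an interaction of 0.83 (SE 0.22). IRF7 had 1.51 against 0.41, an interaction of 1.10 (SE 0.36). Its means with panobinostat (3.85) and in control cells (3.97) lay near the median of all values (3.84), where arrays understate differences, so its sum and interaction rest on weak signals. IRF9 had 2.80 against 1.77, an interaction of 1.03 (SE 0.42). Larger interactions than these were found for 1.99% of named genes in the case of RIGI, 0.786% for IRF7 and 0.988% for IRF9. The genes were picked with these levels known, so the shares describe them and are no test.

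For decitabine and valproic acid the same quantity was -0.14 (SE 0.22) for RIGI, 0.57 (SE 0.36) for IRF7 and 0.13 (SE 0.42) for IRF9. The sums were 1.51 for RIGI, 0.61 for IRF7 and 1.40 for IRF9, against 1.37, 1.18 and 1.53 with both agents. All 3 values moved by more than 1.5 times when 1 array was left out. RIGI then ranged from -0.28 (without control replicate 2) to 0.035 (without control replicate 1), and IRF9 from -0.027 (without decitabine replicate 2) to 0.34 (without decitabine replicate 3). IRF7 ranged from 0.27 without decitabine replicate 2 to 0.84 without decitabine replicate 3. When linear signals were added in place of log2 changes, the RIGI value for valproic acid was 0.12, opposite in sign, while all 3 values for panobinostat stayed above 0, at 1.07 for RIGI, 0.97 for IRF7 and 1.28 for IRF9.

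**Figure D2:**
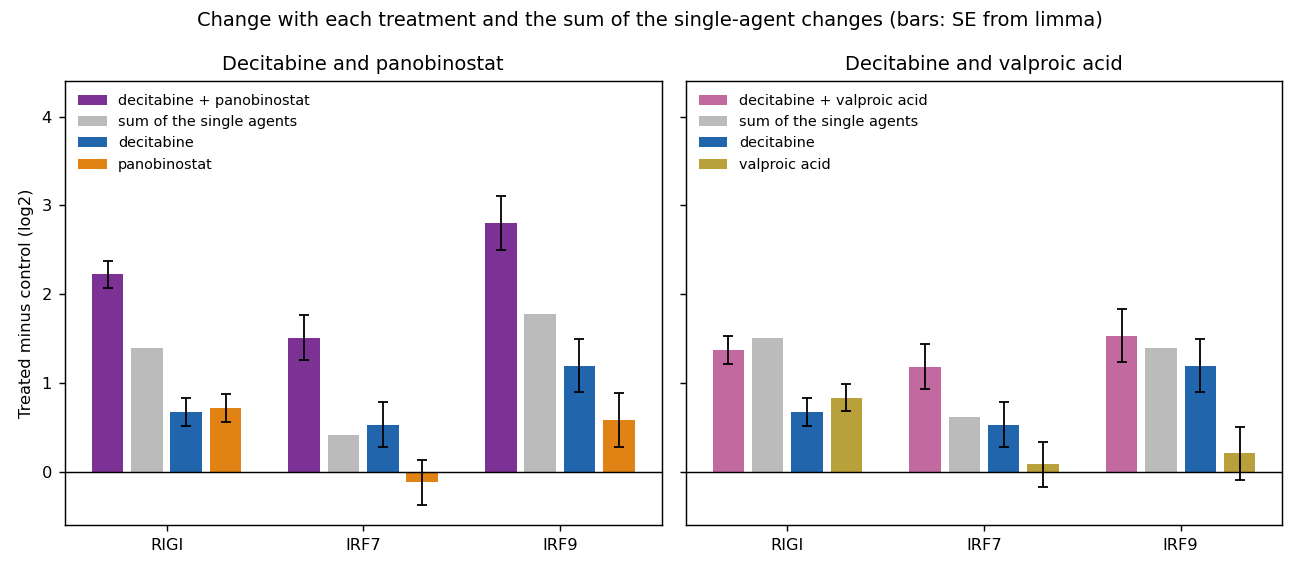
Log2 difference from control (y axis) of RIGI, IRF7 and IRF9 with each combination, the sum of the single-agent differences (grey, no error drawn) and each single agent; error bars are the SE from limma (n = 3 arrays a group). With panobinostat the bar of the combination stands above the grey bar for all 3 genes (2.22 against 1.39 for RIGI), and with valproic acid it stands below it for RIGI (1.37 against 1.51).

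The genes whose pattern was most like each of the 3 were found by the root mean square difference between centred group means, over the 6 groups. These distances take no account of the spread between arrays. The SE of a difference from control was 0.16 for RIGI, 0.26 for IRF7 and 0.30 for IRF9, so the order of the nearest genes is not resolved. Closest to RIGI were MT1E, a metallothionein whose near-identical family members may share its probes, at 0.092, LOC100131289 at 0.13, the zinc finger gene ZNF792 at 0.14, the complement receptor C5AR2 at 0.14, the vitamin B12 carrier TCN2 at 0.15 and PLAC1, a placental gene, at 0.16. The median distance of a named gene from RIGI was 0.705. Closest to IRF7 were the VEGF receptor FLT1 at 0.085, the Wnt antagonist DKK1 at 0.10, the lipid droplet protein PLIN2 at 0.10, the kinase-anchoring protein AKAP12 at 0.11, OLFML2A at 0.11 and the ciliary transport gene IFT57 at 0.11, against a median of 0.639. None of these 12 genes is on the interferon lists used here. Those lists hold 73 of the 14884 named genes, so this absence says little about the 12. Closest to IRF9 were IFI44L, an interferon-induced gene, at 0.21, the inhibitory sialic acid receptor SIGLEC9 at 0.21, ECSCR at 0.24, CLDN10-AS1 at 0.24, TEX41 at 0.24 and the transcription factor TEAD3 at 0.27, against a median of 0.961. The 3 described genes were not among each other's nearest 6: RIGI stood 46th and IRF7 59th of 14883 genes by distance from IRF9, IRF7 stood 146th and IRF9 358th by distance from RIGI, and RIGI stood 245th and IRF9 637th by distance from IRF7.

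**Figure D3:**
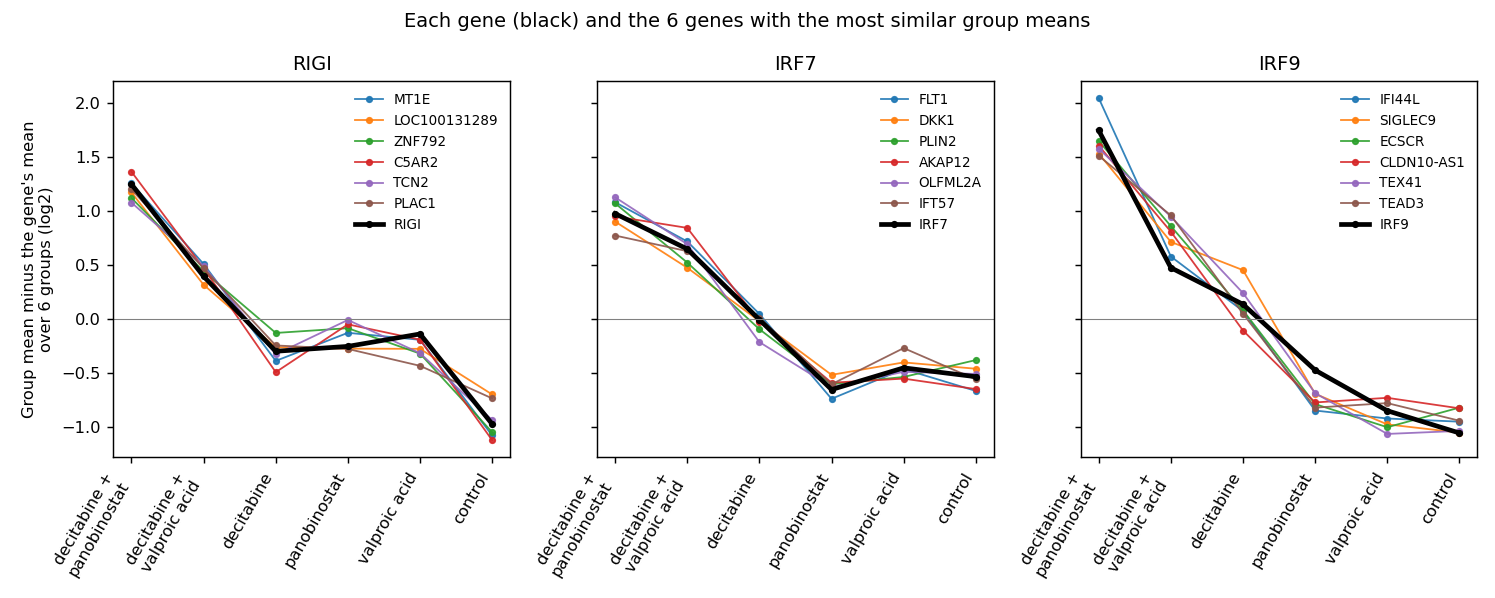
Group means of RIGI, IRF7 and IRF9 (black) and of the 6 genes nearest to each (colours), each centred on its own mean over the 6 groups (y axis, log2), by treatment group (x axis). The points are means of 3 arrays, and the nearest gene lies 0.092 from RIGI, 0.085 from IRF7 and 0.21 from IRF9 in root mean square.

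Of the nearest genes with a named probe set on each side, taken by position after the levels were known, 1 was called against control. Genes without a named probe set were passed over and distances were not taken, so these need not be direct neighbours. That call was with decitabine plus panobinostat, where 11.2% of all named genes were called higher and 12.0% lower. Neither MIR873 and TMEM215, taken for RIGI, nor PHRF1 and CDHR5, taken for IRF7, were called in any comparison with control (limma, adjusted p under 0.05 over 14884 genes). For IRF9 on chromosome 14, the ubiquitin ligase gene RNF31 on one side was not called in these comparisons. The meiotic cohesin gene REC8 on the other side had 5.28, 4.38 and 4.15 with decitabine plus panobinostat against 3.67, 3.82 and 3.36 in control cells. It rose by 0.99 (SE 0.22, adjusted p = 0.00331, limma), without overlap, a call that held in all 6 fits without 1 array (limma adjusted p up to 0.0214), and it was not called in the other comparisons. The control arrays of REC8 lay below the median of all values (3.84), where arrays understate differences, and replicate 1 of the combination was its highest array.

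The pathway around the 3 genes was described with 6 lists holding 122 other genes, of which 73 had a named probe set. The lists were chosen with earlier results of these data known. Their counts and the background shares beside them are therefore a description and no test of the lists. By role these were 19 of 22 genes of nucleic acid sensing, 6 of 7 other interferon regulatory factors, 6 of 12 receptor and JAK-STAT genes, 9 of 15 genes that restrain the response and 33 of 45 interferon-induced effectors. The 21 interferon ligands and the type I receptor genes were not analysed here. With decitabine plus panobinostat 31 of the 73 genes rose and 8 fell, against 11.2% of all named genes called higher and 12.0% called lower. With decitabine plus valproic acid the counts were 14 and 5 (background 8.90% and 8.06%), with decitabine 8 and 0 (2.57% and 1.39%, limma, with 16 higher and 4 lower at an unadjusted p under 0.05), with panobinostat 11 and 4 (3.92% and 3.47%), and with valproic acid 10 and 1 (4.73% and 2.74%). The median difference over the 73 genes was 0.31 with decitabine plus panobinostat, 0.13 with decitabine plus valproic acid, 0.12 with decitabine, 0.089 with panobinostat and 0.032 with valproic acid, while that of all genes lay between -0.022 and -0.0042. Leaving out control replicate 3 took the panobinostat count to 9 genes in place of 15, and leaving out valproic acid replicate 1 took the valproic acid count to 7 in place of 11. Calls that held whichever array was left out numbered 23 of 39 with decitabine plus panobinostat, 14 of 19 with decitabine plus valproic acid, 6 of 8 with decitabine, 7 of 15 with panobinostat and 7 of 11 with valproic acid.

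Among the sensing genes, the 2 relatives of RIG-I moved with the first combination. IFIH1, which encodes the RNA sensor MDA5, read 7.30, 7.13 and 7.16 with decitabine plus panobinostat against 5.82, 5.89 and 5.82 in control cells, with no overlap, a rise of 1.35 (SE 0.20, adjusted p = 9.72e-05, limma) that held in all 6 fits without 1 array. It also rose with decitabine plus valproic acid (0.74) and with valproic acid (0.79). The call with valproic acid held in 1 of 6 such fits (limma adjusted p 0.0108 to 0.109, highest without valproic acid replicate 1). That with decitabine plus valproic acid held in 4 of 6 (limma adjusted p 0.00262 to 0.0825, highest without its replicate 3). IFIH1 differed from control by 0.16 with decitabine and 0.34 with panobinostat, values that did not pass. DHX58, which encodes the RIG-I-like regulator LGP2, rose by 0.88 with decitabine plus panobinostat (SE 0.19, limma adjusted p = 0.00281) and was between -0.063 and 0.10 in the other 4 treated groups. The adaptor MAVS was not called in any comparison with control (-0.16 with decitabine plus panobinostat), nor was TRIM25, a ubiquitin ligase acting on RIG-I (0.16). RNF135, the other ligase of RIG-I, fell by 0.86 with decitabine plus panobinostat and by 1.13 with decitabine plus valproic acid. The first of these calls held in 1 of 6 fits without 1 array (limma adjusted p 0.042 to 0.111, highest without replicate 2 of the combination), and the second in 4 of 6 (limma adjusted p 0.000745 to 0.0547, highest without its replicate 2).

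In all, 6 of 19 sensing genes rose and 3 fell with decitabine plus panobinostat, against 11.2% of all named genes called higher and 12.0% lower. STING1, the adaptor of DNA sensing, rose by 0.67 and EIF2AK2, the kinase PKR, by 0.58, while CGAS, the DNA sensor upstream of STING1, fell by 0.38 and the adaptor TRAF3 by 0.88. The STING1 and EIF2AK2 calls held in all 6 fits without 1 array, that of CGAS in 2 (limma adjusted p up to 0.166, without control replicate 2) and that of TRAF3 in 3 (limma adjusted p up to 0.0909, without replicate 2 of the combination). TBK1, the kinase that activates IRF3 and IRF7, rose by 0.40 (limma adjusted p = 0.0489), a call that held in 2 of 6 (limma adjusted p 0.0442 to 0.175, highest without control replicate 1). AIM2 rose by 0.38, a call that held in 1 of 6 (limma adjusted p up to 0.191, without replicate 1 of the combination). Its means with the combination (3.69) and in control cells (3.31) lay below the median of all values (3.84). Of the 19 sensing genes 1 rose and 2 fell with decitabine plus valproic acid, 1 rose (TLR3, by 0.84) and 1 fell with panobinostat, and 2 rose with valproic acid. The shares of all named genes called higher and lower were 8.90% and 8.06% with decitabine plus valproic acid. They were 3.92% and 3.47% with panobinostat and 4.73% and 2.74% with valproic acid, so these small counts are not particular to sensing genes. With panobinostat the TLR3 call held in 4 of 6 fits without 1 array (limma adjusted p up to 0.0525, without panobinostat replicate 3). None passed with decitabine (limma, with 3 of 19 at an unadjusted p under 0.05, all lower), where 2.57% of all named genes were called higher and 1.39% lower.

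Of the 6 other interferon regulatory factors measured, 1 was called against control. That call was with decitabine plus panobinostat, where 11.2% of all named genes were called higher and 12.0% lower. IRF2 rose with decitabine plus panobinostat by 0.44 (SE 0.14, limma adjusted p = 0.0311), a call that held in 2 of 6 fits without 1 array (limma adjusted p 0.0182 to 0.147, highest without replicate 1 of the combination). IRF8, a myeloid lineage factor, was 0.77 above control with decitabine (limma adjusted p = 0.0576) and 0.66 below it with panobinostat (limma adjusted p = 0.0802), both short of the threshold. IRF3, which RIG-I signalling activates by phosphorylation, differed from control by 0.067 with decitabine plus panobinostat and by 0.61 with decitabine (limma adjusted p = 0.128). At an unadjusted p under 0.05 (limma) there were 0 of 6 with decitabine plus valproic acid and 0 with valproic acid. With decitabine there were 4, all higher, and with panobinostat 3, of which 1 was higher and 2 lower.

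Of 6 receptor and JAK-STAT genes, the kinase gene JAK1 rose with decitabine plus panobinostat (0.59), decitabine plus valproic acid (0.52), panobinostat (0.39) and valproic acid (0.33), and STAT3 rose by 0.65 with each combination. The interferon gamma receptor gene IFNGR1 rose by 0.97 with panobinostat. The calls in the combinations held in all 6 fits without 1 array. Those with panobinostat held in 2 of 6 for JAK1 (limma adjusted p up to 0.0745, without panobinostat replicate 2) and 3 of 6 for IFNGR1 (limma adjusted p up to 0.0927, without control replicate 3), and that of JAK1 with valproic acid held in 1 of 6 (limma adjusted p up to 0.17, without valproic acid replicate 3).

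Of 9 restraining genes, 2 rose and 3 fell with decitabine plus panobinostat, against 11.2% of all named genes called higher and 12.0% lower. SOCS1, a feedback inhibitor of JAK kinases, rose by 0.52 (called in 3 of 6 fits without 1 array, limma adjusted p up to 0.0682 without replicate 2 of the combination). Its means with the combination (4.01) and in control cells (3.49) lay near the median of all values (3.84), where arrays understate differences. IRF2BP1, a corepressor bound by IRF2, fell by 1.15 (called in all 6). IRF2BP2 fell by 0.50 (called in 2 of 6, limma adjusted p up to 0.128 without replicate 3 of the combination). With decitabine plus valproic acid IRF2BP2 fell by 0.73 (called in all 6). USP18, a protease that removes ISG15 and has near-identical copies that may share its probes, rose by 0.53 with decitabine plus panobinostat (called in 1 of 6 fits, limma adjusted p up to 0.212 without control replicate 1). It fell by 0.77 with panobinostat, with overlapping arrays (called in 2 of 6, limma adjusted p up to 0.0802 without control replicate 3). NLRX1, a mitochondrial inhibitor of the MAVS pathway, fell by 0.70 with decitabine plus panobinostat, by 0.61 with decitabine plus valproic acid and by 0.75 with panobinostat. These calls held in all 6 fits for the first, in 2 for the second (limma adjusted p up to 0.126, without its replicate 3) and in 2 for panobinostat (limma adjusted p up to 0.089, without panobinostat replicate 3).

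Most of the calls were in the effector list, genes that ISGF3 and interferon regulatory factors switch on. The shares of all named genes called higher and lower were 11.2% and 12.0% with decitabine plus panobinostat and 8.90% and 8.06% with decitabine plus valproic acid. They were 2.57% and 1.39% with decitabine, 3.92% and 3.47% with panobinostat and 4.73% and 2.74% with valproic acid. With decitabine plus panobinostat 20 of 33 rose and 2 fell, led by the chemokine CXCL11 (3.68), IFI44L (3.00), the RNA-binding IFIT5 (2.83) and the nuclear body gene SP110 (2.05). With decitabine plus valproic acid 11 rose and 1 fell, led by CXCL11 (2.99), IFIT5 (2.65), IFI44L (1.53) and SAMD9L (1.36). With decitabine all 8 rises of the 73 genes were effectors, led by IFIT5 (2.36) and the membrane proteins IFITM3 (1.37) and IFITM1 (1.11), with IFI35 at 1.17 (called in 4 of 6 fits without 1 array, limma adjusted p up to 0.0533 without control replicate 3). With panobinostat 8 rose, led by SP110 (1.44) and SAMD9L (1.36), and with valproic acid 7 rose, led by SAMD9L (1.49) and SP110 (1.34), while NMI fell by 0.90. NMI was also called lower with decitabine plus valproic acid (-0.95) and with decitabine plus panobinostat (-0.71). CXCL11 read 7.98, 6.99 and 6.89 in decitabine plus panobinostat arrays, 6.00, 6.73 and 7.04 in those of decitabine plus valproic acid, and 3.38, 3.86 and 3.56 in control cells. With panobinostat alone (3.32 to 3.76) and with valproic acid alone (3.30 to 3.65) its arrays overlapped control.

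**Figure D4:**
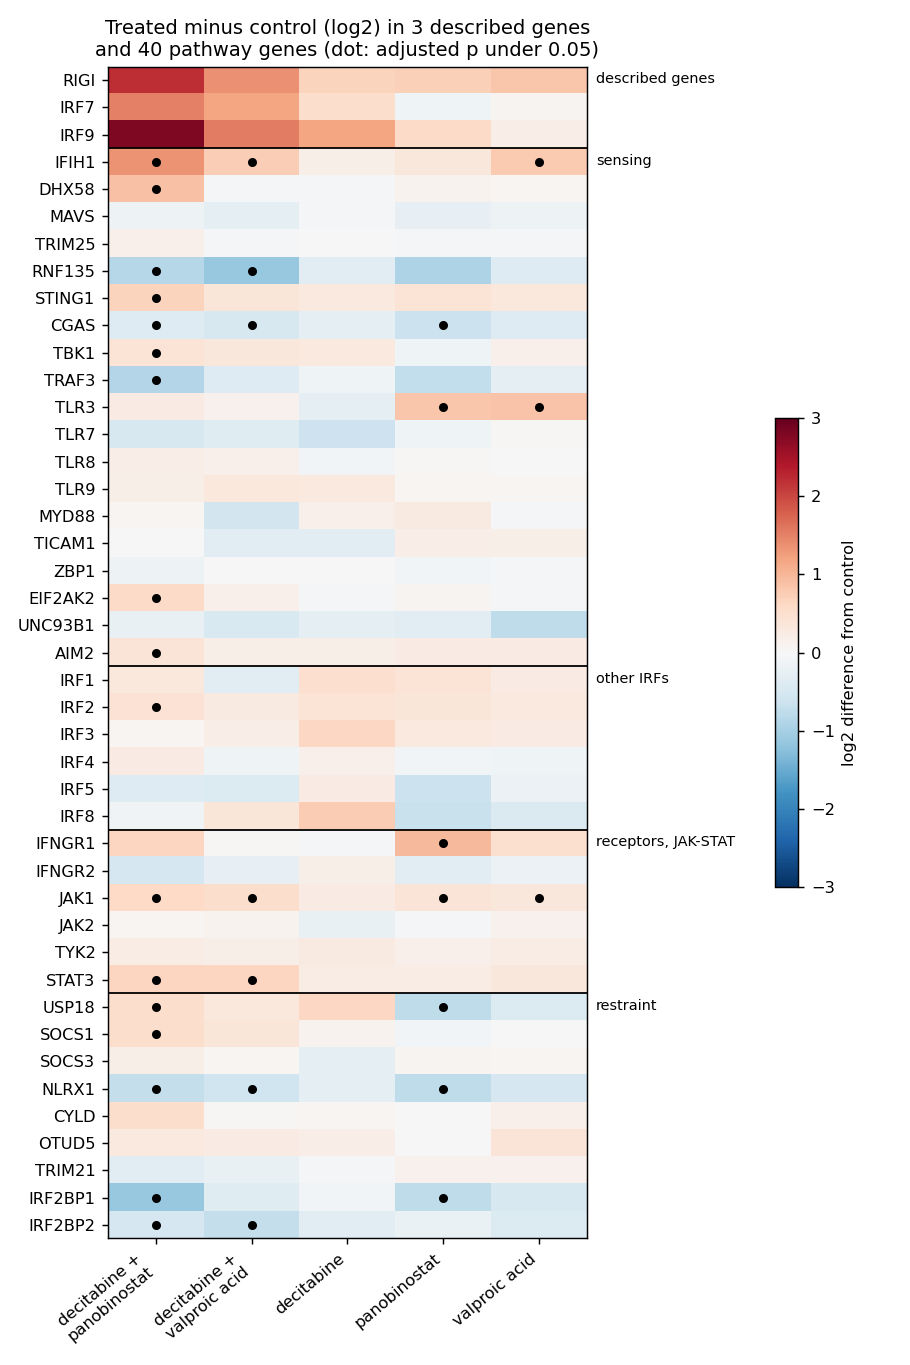
Log2 difference from control (colour) of RIGI, IRF7 and IRF9 and of 40 genes of 4 pathway lists (rows) in the 5 treated groups (columns); a dot marks an adjusted p under 0.05 (limma, n = 3 arrays a group), which is not drawn for the 3 described genes. Calls are most frequent in the first column, and IFIH1 (1.35) and DHX58 (0.88) are the sensing genes with the largest rises there.

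Each combination was also set against its single agents. Decitabine plus panobinostat had 22 of the 73 genes higher and 6 lower than decitabine alone (background 7.66% and 7.91%), and 20 higher and 0 lower than panobinostat alone (5.42% and 4.13%, limma, with 28 higher and 4 lower at an unadjusted p under 0.05). The first count was 17 in place of 28 when decitabine replicate 3 was left out. Decitabine plus valproic acid had 2 higher and 3 lower than decitabine alone (3.57% and 2.57%), and 9 higher and 2 lower than valproic acid alone (2.63% and 1.40%). The interaction of decitabine and panobinostat was called above 0 for 4 effectors and below 0 for none (0.336% and 0.289% of all genes, limma, with 16 and 5 at an unadjusted p under 0.05). That of decitabine and valproic acid was called above 0 for none and below 0 for 1 (0.0134% and 0.0470%, with 1 and 8 at an unadjusted p under 0.05).

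Markers of cell type also differed between the groups, in an order unlike that of the 3 genes for the monocytic list. Of 10 monocytic markers 6 were measured, and their mean log2 level ran from 8.68 to 8.97 with decitabine plus panobinostat, 8.68 to 9.24 with decitabine plus valproic acid, 9.12 to 9.44 with decitabine, 8.54 to 8.72 with panobinostat, 8.22 to 8.39 with valproic acid and 8.003 to 8.17 in control cells. With decitabine plus panobinostat LYZ, CSF1R and TYROBP rose while SPI1 and MPO fell. Against decitabine alone, where RIGI, IRF7 and IRF9 were all higher in the combination, 0 of the 6 monocytic markers were called higher and 3 lower (limma, with 1 and 3 at an unadjusted p under 0.05), and their median difference was -0.47. In that comparison 7.66% of all named genes were called higher and 7.91% lower. Of 19 markers of other cell types 7 were measured, and their mean ran from 5.29 to 5.63 with decitabine plus panobinostat, 5.38 to 5.51 with decitabine plus valproic acid, 4.99 to 5.19 with decitabine, 4.90 to 5.01 with panobinostat, 5.04 to 5.07 with valproic acid and 4.67 to 4.85 in control cells. CD2, NCAM1, EPCAM and PECAM1 of that list rose with decitabine plus panobinostat. With this combination 11.2% of all named genes were called higher than control and 12.0% lower. Compared with decitabine alone, 4 of these 7 markers were called higher in this combination and 1 lower (limma, with 4 and 1 at an unadjusted p under 0.05). Their median difference there was 0.72, against a background of 7.66% called higher and 7.91% lower. The part of the markers of either list in the levels of RIGI, IRF7 and IRF9 was not tested, and markers of plasmacytoid dendritic cells, which express much IRF7, were not analysed here.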

How the data were processed

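The authors hybridised RNA of U937 cells, extracted with TRIZOL and a column per the labels' protocols, to 18 arrays. The deposited values are log2 signals per probe set, made with RMA per the submitters' processing notes, and the version of RMA is not given in the sources used here. Of 48226 probe sets 16098 had 1 gene symbol, 0 had several and 32128 had none. Symbols were updated by gene ID to those of RefSeq (GRCh38.p14), and for the 779 genes with several probe sets the one with the highest mean level stood for the gene.

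A model with 1 mean per group (12 residual degrees of freedom) was fitted to all 14884 genes with limma 3.58.1 in R 4.3.3. Adjusted p-values are Benjamini-Hochberg over all genes of a comparison, with a threshold of 0.05, and no gene was left out for a low level. There were 11 comparisons: 5 treatments against control, 4 combinations against a single agent and 2 interactions. The code was tested on simulated data first. Promoter windows were read from RefSeq for 2 of the 3 genes.

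RIGI, IRF7, IRF9 and all gene lists were chosen with earlier results of these data known. Genes named are these 3, genes of the lists (effectors only when called and among the 4 largest changes of a comparison), and the 6 nearest in pattern to each of the 3. The replicate numbers were not taken to pair samples. Alternatives covered array centring, averaging of probe sets, the genes tested, the replicate number as a block, the groups in the fit, moderation and leaving out each array.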

Additional observations from a re-analysis of the deposited data

Results flagged for a closer look

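The interaction of decitabine with an inhibitor was called for 5 pathway genes, all of them effectors (limma, Benjamini-Hochberg adjusted p over 14884 genes). With panobinostat the deposited log2 change of CXCL11 was above the sum of the single-agent changes by 2.96 (SE 0.44, limma adjusted p = 0.00462) and that of OASL by 1.24 (SE 0.21, limma adjusted p = 0.00992). Both were called in all 12 fits that left out 1 array, with highest adjusted p-values from limma of 0.0179 for CXCL11 and 0.0334 for OASL. IFI44L was above the sum by 1.87 (SE 0.36, limma adjusted p = 0.0262) and was called in 5 of the 12 fits (limma adjusted p 0.00251 to 0.0726). XAF1 exceeded it by 1.28 (SE 0.27, limma adjusted p = 0.0399) and was called in 2 of the 12 (limma adjusted p 0.0205 to 0.107). With valproic acid SP110 changed by less than the sum, an interaction of -1.23 (SE 0.20, limma adjusted p = 0.0298), and was called in 6 of the 12 fits (limma adjusted p 0.024 to 0.0772). CXCL11 averaged 3.52 with panobinostat and 3.60 in control cells, and IFI44L 3.77 and 3.67, below the median of all values (3.84). Arrays understate differences at such levels, so the panobinostat term in their sums is uncertain and their interactions are differences of deposited values, not measured excesses. OASL (4.84 with panobinostat, 4.52 in control cells), XAF1 (7.58 and 8.10) and SP110 (7.32 with valproic acid, 5.98 in control cells) lay above that median. For comparison, the interactions of the 3 described genes with panobinostat were 0.83 for RIGI, 1.10 for IRF7 and 1.03 for IRF9, given without a test.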

How the results depend on the processing

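The differences of RIGI, IRF7 and IRF9 moved by less than 1 SD under array centring, averaging of probe sets, the replicate block and leaving out each array. Adding linear signals, an alternative chosen after seeing the data, gave 1.07 for RIGI with decitabine and panobinostat and 0.12 with decitabine and valproic acid. For counts of pathway genes called, fitting only the compared groups gave 1 for decitabine plus valproic acid over decitabine (5 otherwise), 5 over valproic acid (11 otherwise), and 2 and 0 for the interactions with panobinostat and valproic acid (4 and 1 otherwise). For the last, the replicate block gave 0 and trended, robust moderation 2. The block left every other count within 1.5 times. Same-numbered arrays of different groups deviated together at correlations of -0.11 to 0.10, so they were not taken as pairs. Leaving out 1 array gave 9 to 12 genes for panobinostat, 7 to 12 for valproic acid, 17 to 27 for decitabine plus panobinostat over decitabine, 2 to 6 for decitabine plus valproic acid over decitabine, 4 to 9 over valproic acid, 2 to 5 for the interaction with panobinostat and 0 to 2 for that with valproic acid. Weak signals such as those of IRF7, CXCL11 and IFI44L without decitabine lie near background, where arrays understate differences.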
